A study of Mus musculus with 40 samples.

Results

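Immediate early genes are switched on within minutes of a signal without new protein synthesis, and 10 of them were followed here in CD11b+ myeloid cells of mouse brain and glioma: Fos, Fosb, Jun, Junb, Atf3, Egr1, Egr2, Egr3, Nr4a1 and Ier2. They were picked by name, as known immediate early genes, and are 10 of the 21907 protein-coding genes in the expression tables. Fos, Fosb, Jun, Junb and Atf3 encode leucine zipper proteins that pair up as AP-1 or bind related sites. Egr1, Egr2 and Egr3 encode zinc finger factors, Nr4a1 an orphan nuclear receptor, and Ier2 a small early response protein. In macrophages and microglia these genes answer growth factors, toll-like receptor ligands, calcium and adhesion signals, usually through the serum response factor with its partners and through CREB. They are also known to rise while brain cells are dissociated and sorted, so that their RNA level in sorted cells can carry both the state in the tissue and the handling.

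RNA was sequenced from CD11b+ cells sorted from the brains of male mice, 10 to 12 weeks old, after digestion with collagenase IV and DNase I, a Percoll step and FACS. In the GL261 experiment at 21 days post-implantation (DPI), C57BL/6 mice carried tdTomato+ luc+ GL261 cells, a murine glioma line, and received water (vehicle, labelled solvent control), 7aaRGD (an integrin-blocking peptide) or 7aaRAE (the control peptide in which the RGD motif is replaced by RAE) from osmotic pumps at 2 mg/ml; naive C57BL/6 mice had no tumor. Each of these 4 groups had 3 samples of 2 pooled animals. The mice of 28 DPI were sequenced singly, 4 with vehicle, 4 with 7aaRGD, 3 with anti-PD-1 and 3 with 7aaRGD plus anti-PD-1 (the combination, labelled RGD+Anti-PD-1+RGD). The antibody was injected intraperitoneally 4 times between days 8 and 14, each time at 10 mg/kg, and mice without it were given IgG. The labels of the 28 DPI samples name nude mice, whereas the methods place GL261 in C57BL/6 mice. In the U87-MG experiment at 21 DPI, Athymic Nude-Foxn1nu mice, which lack mature T cells, carried RFP-expressing U87-MG cells, a human glioma line, and vehicle, 7aaRGD and 7aaRAE had 3 samples each of 2 pooled animals. The labels give the implanted line as the cell type of the first and the last of these experiments and call GL261 human, although the sorted cells were mouse myeloid cells. Not analysed here were 5 samples: naive nude mice, and the fourth mouse given anti-PD-1 and the fourth given the combination.

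Levels are given in RPKM, read numbers scaled to gene length and library size, which can be compared between genes. Each experiment had its own table, normalized separately, so tests were made within a table and levels from different tables were only set side by side. Differences were tested on log2(RPKM + 1) with limma and are given as log2 fold changes, which understate the change of low genes; a gene was called at a Benjamini-Hochberg adjusted p under 0.05 over all genes tested. Background is the share of all genes tested that passed the same threshold, and for an unadjusted p it counts both directions. Read counts are not in the tables, so how deeply each sample was sequenced is unknown. Between 9330 and 9823 genes per sample reached 1 RPKM. The summed RPKM of 4 myeloid genes (Itgam, which encodes CD11b, Csf1r, Aif1 and Ptprc) lay between 965 and 3370 over all groups, while 5 neuronal markers summed to at most 1.72 in any sample.

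To show the stretches from which these genes are transcribed, the 150 bases before the annotated start are printed for 4 members: Fos, against which the others were set; Egr2, with the largest change against naive mice; Atf3, higher in 3 of the comparisons below; and Jun, not called against naive mice. The sequences are from RefSeq on GRCm38.p6 (mm10), 5′ to 3′ on the gene's strand, and capitals mark TGACG on either strand (the core that CREB and ATF proteins bind) and, in Egr2, the CArG box that serum response factor binds.
Fos, chr12:85473740-85473889, plus strand: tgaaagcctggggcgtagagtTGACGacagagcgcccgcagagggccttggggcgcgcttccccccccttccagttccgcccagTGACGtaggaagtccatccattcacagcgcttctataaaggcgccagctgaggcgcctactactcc
Egr2, chr10:67537719-67537868, plus strand: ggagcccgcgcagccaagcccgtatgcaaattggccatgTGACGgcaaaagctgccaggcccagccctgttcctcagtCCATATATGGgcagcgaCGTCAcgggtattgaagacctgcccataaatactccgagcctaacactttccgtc
Atf3, chr1:191183334-191183483, minus strand: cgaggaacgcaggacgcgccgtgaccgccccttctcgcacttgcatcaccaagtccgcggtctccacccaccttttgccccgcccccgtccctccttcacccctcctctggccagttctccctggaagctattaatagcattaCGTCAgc
Jun, chr4:95052223-95052372, minus strand: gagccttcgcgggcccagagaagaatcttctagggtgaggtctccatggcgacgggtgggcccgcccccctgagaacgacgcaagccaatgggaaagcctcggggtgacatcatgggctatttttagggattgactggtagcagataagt

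TGACG lay in 6 of the 7 members with a sequence used here (Fos, Fosb, Junb, Egr2, Atf3 and Nr4a1, but not Jun; Egr1, Egr3 and Ier2 not among them), compared with 13.3% of 32851 promoter windows of the same length. In Fos it stood 66 to 62 bases before the start and again at 129 to 125, in Atf3 at 7 to 3, and in Egr2 at 111 to 107 and 55 to 51. The full palindrome TGACGTCA, which contains TGACG on both strands, was in 0 of 7 windows (1.36% of all), the AP-1 site TGACTCA in 0 of 7 (2.84%), and the CArG box in 1 of 7 (Egr2, 0.916% of all). These are matches of letters in a short window, and farther sites were not searched. Egr2 has 5 annotated starts, of which that of its first-numbered transcript was used.

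**Figure D1:**
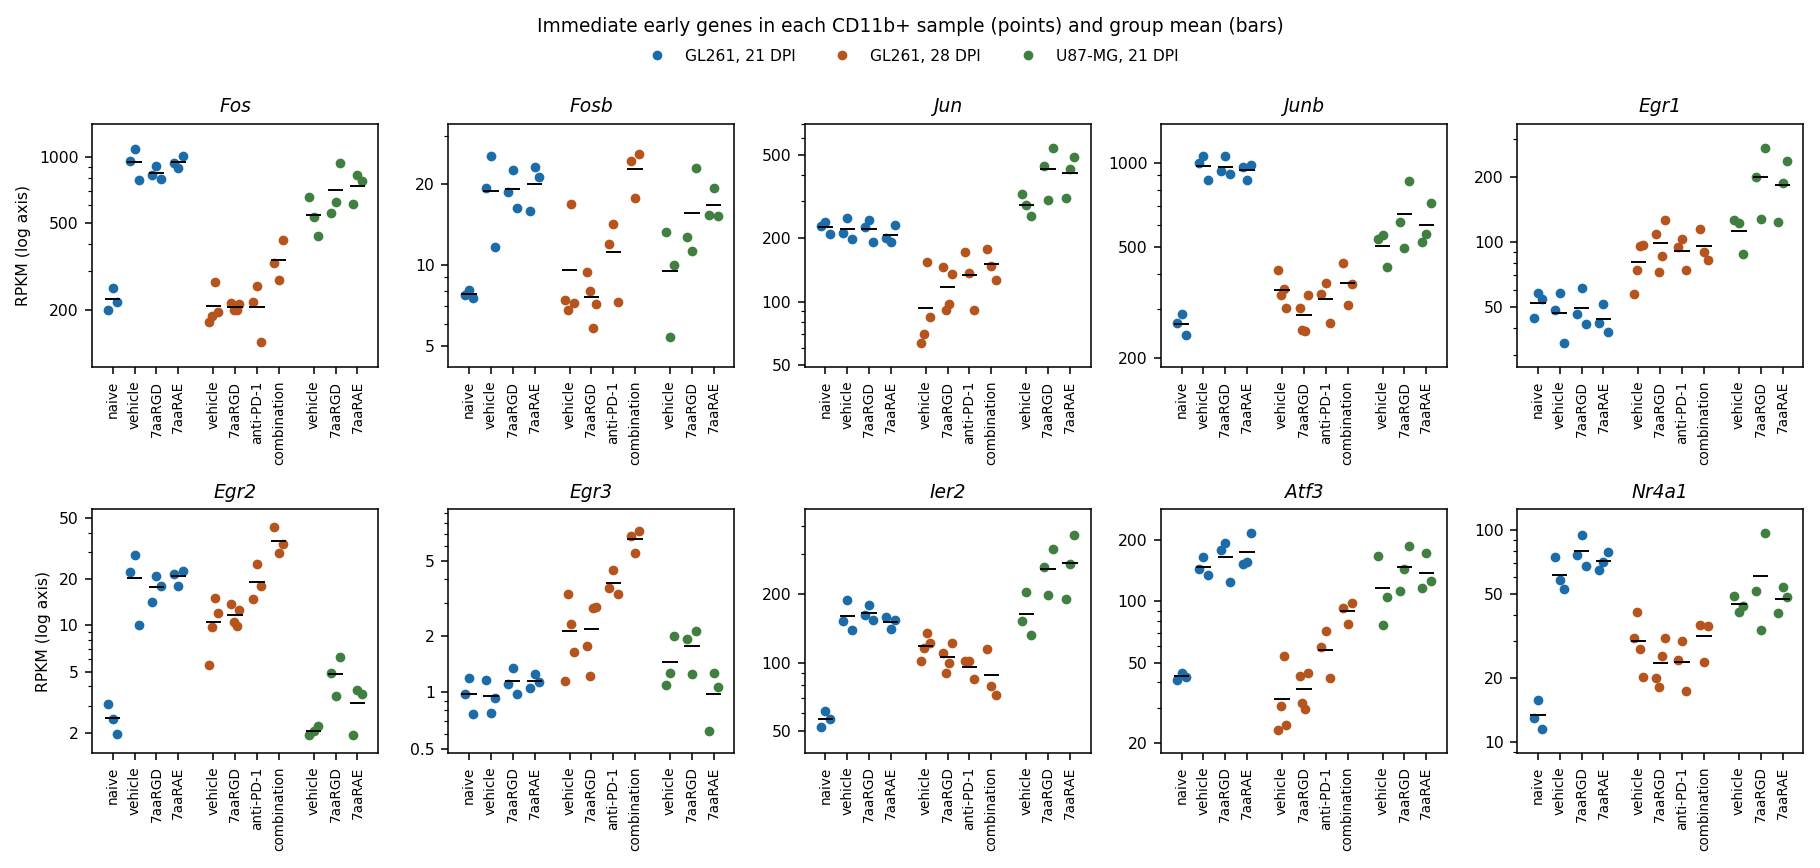
RPKM of each immediate early gene (log axis, 1 panel per gene) in every sample; points are samples, bars are group means, and colours are the 3 experiments. Fos, Junb, Ier2, Atf3, Nr4a1 and Egr2 sit far above naive mice in all tumor-bearing groups of the GL261 table at 21 DPI, whereas Jun and Egr1 do not.

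The GL261 tumor was compared with the naive brain first. Of the 9 members tested, 7 were higher in vehicle mice than in naive mice and none was lower, against a background of 34.6% of 9731 genes called higher and 48.2% called lower. The median log2 fold change was 1.76 for the members and -0.14 for all genes tested. The 7 were Fos, Fosb, Junb, Atf3, Egr2, Nr4a1 and Ier2, and each kept its call in all 14 alternative analyses. Jun and Egr1 were not called, and Egr3 was below the filter of a mean of 1 RPKM.

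Fos, the AP-1 subunit most often used as a marker of cell activation (chr12:85473890-85477273), was at 201, 253 and 218 RPKM in the naive samples and at 959, 1087 and 786 RPKM in the vehicle samples. The groups were far apart, with a mean of 944 RPKM ± 151 (SD, n = 3) in vehicle and 224 RPKM ± 26.4 (SD, n = 3) in naive mice, a ratio of 4.21 (log2 fold change 2.06, SE 0.13, adjusted p = 1.74e-06). Junb, an AP-1 subunit that restrains proliferation (chr8:84974484-84978718), rose from 267, 287 and 241 RPKM to 997, 1061 and 865 RPKM, 3.68-fold (log2 fold change 1.87, SE 0.097, adjusted p = 5.72e-07). It was, with Fos, the most abundant member in vehicle mice. Fosb (chr7:19302696-19310051) stood at 7.73, 8.06 and 7.53 RPKM in naive and at 19.3, 25.4 and 11.7 RPKM in vehicle samples (log2 fold change 1.11, SE 0.23, adjusted p = 0.00212). All vehicle samples exceeded all naive samples, and vehicle 3 was the nearest to them.

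Atf3, a stress-responsive factor that damps inflammatory transcription (chr1:191170296-191218039), was at 41.2, 44.4 and 42.5 RPKM in naive and 145, 165 and 134 RPKM in vehicle samples, 3.46-fold higher (log2 fold change 1.76, SE 0.081, adjusted p = 3.03e-07). Both groups were tight and did not overlap. Jun, the usual partner of Fos (chr4:95049034-95052222), was at 228, 240 and 209 RPKM in naive and 212, 251 and 199 RPKM in vehicle samples. These groups overlapped fully, and the interval of the log2 difference was narrow, from -0.26 to 0.18 (adjusted p = 0.724). The Fos to Jun ratio of RPKM thus ran from 0.883 to 1.05 in naive and from 3.96 to 4.52 in vehicle samples.

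The EGR family divided. Egr2, known from myelination and from macrophage differentiation (chr10:67535475-67542188), rose from 3.09, 2.47 and 1.97 RPKM in naive to 22.4, 29.0 and 10.1 RPKM in vehicle samples, 8.17-fold and the highest ratio among the members (log2 fold change 2.51, SE 0.33, adjusted p = 0.000139). Vehicle 3 was again the lowest of its group but lay above every naive sample. Egr1, the prototype of the family, was at 44.2, 57.8 and 54.5 RPKM in naive and 48.2, 57.7 and 34.1 RPKM in vehicle samples, with overlapping groups (log2 fold change -0.18, interval -0.61 to 0.24, adjusted p = 0.382). Egr3 (chr14:70077203-70082614) was near 1 RPKM in both groups, 0.956 RPKM ± 0.198 (SD, n = 3) in vehicle and 0.976 RPKM ± 0.211 (SD, n = 3) in naive mice.

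Nr4a1, a nuclear receptor that limits inflammatory gene expression in macrophages (chr15:101254269-101274795), was at 12.99, 15.8 and 11.5 RPKM in naive and 74.6, 58.2 and 52.6 RPKM in vehicle samples, 4.60-fold higher (log2 fold change 2.12, SE 0.14, adjusted p = 2.72e-06). Ier2 (chr8:84661331-84662852) was at 52.0, 61.4 and 56.4 RPKM in naive and 153, 188 and 140 RPKM in vehicle samples, 2.84-fold higher (log2 fold change 1.48, SE 0.11, adjusted p = 5.15e-06). Neither gene's groups overlapped.

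Genes of the same response families moved as follows in vehicle against naive mice, where 34.6% of all genes were called higher and 48.2% lower. Of 7 other AP-1 genes tested, 5 were higher, among them Maff (log2 fold change 3.45, from 0.282 to 13.1 RPKM) and Fosl2 (2.64), and Jund was lower (-0.45). Nr4a3, a receptor related to Nr4a1, and Nab1 and Nab2, which encode corepressors of EGR proteins, were all 3 higher, by 2.57, 1.90 and 0.82. Of 19 other early response and feedback genes, 13 were higher, led by Ier3 (4.50), Gadd45b (3.77) and the MAP kinase phosphatases Dusp2 (3.57) and Dusp5 (3.54), and 4 were lower, led by Rhob (-2.35, from 1020 to 201 RPKM). The transcription factors upstream were mixed, with 4 of 9 higher (Crem 1.67, Elk1 1.00) and 3 lower (Creb1 -0.65, Elk3 -0.62 and Elk4 -0.32), which is near the background for calls.

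The sorted cells differed in composition between these groups. The summed RPKM of 6 microglia markers was 13500 to 14000 in naive and 1230 to 1740 in vehicle samples, and none of the 6 was under 0.5 RPKM in either group. The sum of 4 monocyte and macrophage markers was 11.8 to 12.7 in naive mice, where Vcan was under 0.5 RPKM, and 686 to 1130 in vehicle mice. The 5 neutrophil markers summed to 366 to 436 in naive and 120 to 242 in vehicle samples. The part of these shifts in the immediate early genes was not tested; in bulk RNA, fewer cells of a type and less RNA per cell cannot be told apart. Of 14 genes known to rise during dissociation of brain myeloid cells, 6 were higher in vehicle mice (Dusp1 2.07, Rgs1 1.96 and Zfp36 1.84 among them) and 5 were lower (Hspa1b -1.80, Hspa1a -1.19, Dnajb1 -0.64, Jund -0.45 and Ier5 -0.15), beside 34.6% and 48.2% of all genes. Of the other heat shock genes on the list, Hspa8 was higher (0.49) and Hsph1 was not called (-0.50, overlapping groups). The lists share genes: Nfkbiz, Zfp36, Dusp1, Ier5 and Btg2 are also early response genes above, and Jund is also an AP-1 gene. Hspa1a and Hspa1b are near-identical copies, and how reads were divided between them is uncertain.

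**Figure D2:**
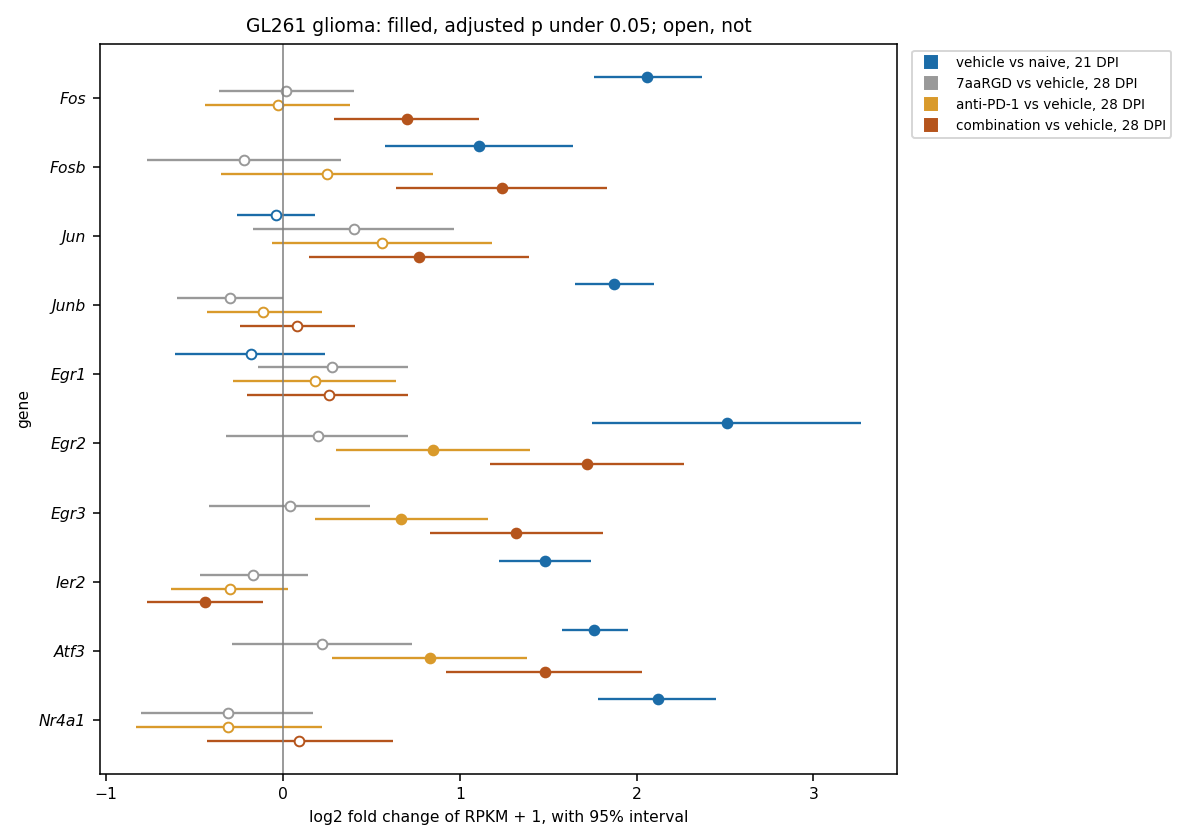
Log2 fold change of RPKM + 1 (x axis) with its 95% interval for each immediate early gene (y axis) in 4 comparisons of GL261 samples; filled points passed an adjusted p of 0.05. Fos, Junb, Ier2, Nr4a1, Egr2 and Atf3 have their largest values between naive and vehicle mice (2.06, 1.87, 1.48, 2.12, 2.51 and 1.76). Egr2 and Atf3 are filled in 3 of the 4 comparisons, and Egr3 has no point for naive mice because it was under the filter.

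The GL261 mice at 28 DPI addressed how CD11b+ cells respond to PD-1 blockade, to 7aaRGD and to both. In vehicle mice Fos averaged 208 RPKM ± 41.0 (SD, n = 4) at 28 DPI, beside 944 in the table of 21 DPI, and Junb 350 beside 974, whereas Egr1 was at 80.7 beside 46.7. These tables were normalized separately, day and experiment cannot be told apart, and the differences were not tested. Samples were pools of 2 animals at 21 DPI and single mice at 28 DPI. Monocyte and macrophage markers in vehicle mice summed to 686 to 1130 RPKM at 21 DPI, beside 27.5 to 58.2 at 28 DPI. The following 3 comparisons share the 4 vehicle samples.

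The combination gave the most calls. Against vehicle, 6 of 10 members were higher (Egr2, Atf3, Egr3, Fosb, Jun and Fos; background 17.5% of 9740 genes) and 1 was lower (Ier2; background 25.7%), with a median log2 fold change of 0.74 for the members and -0.05 for all genes. Over all genes, 1707 were higher and 2508 lower, and with TMM scaling 2198 and 2035. Egr2 was at 43.9, 29.6 and 33.7 RPKM in the combination and at 5.54, 9.82, 15.0 and 11.96 RPKM in vehicle samples. The lowest combination sample was above the highest vehicle sample, and the ratio of means was 3.38 (log2 fold change 1.72, SE 0.26, adjusted p = 0.000179). Egr3 was at 6.81, 5.50 and 7.25 RPKM and at 1.15, 3.35, 2.31 and 1.64 RPKM, again without overlap and 3.09-fold higher (log2 fold change 1.32, SE 0.23, adjusted p = 0.000525).

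Atf3 reached 92.6, 77.3 and 98.1 RPKM in the combination, compared with 23.4, 30.6, 53.7 and 24.7 RPKM in vehicle samples (2.70-fold; log2 fold change 1.48, SE 0.26, adjusted p = 0.000541). Fosb was at 24.4, 17.7 and 25.7 RPKM against 7.42, 6.80, 16.8 and 7.22 RPKM (log2 fold change 1.24, SE 0.28, adjusted p = 0.00295). Neither overlapped, although vehicle 3 was well above the rest of its group for both genes and nearly reached the combination for Fosb. Egr2, Egr3, Atf3 and Fosb kept their calls under every alternative tried.

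Fos was at 327, 274 and 415 RPKM in the combination and 177, 189, 268 and 197 RPKM in vehicle samples, 1.63-fold higher (log2 fold change 0.70, SE 0.19, adjusted p = 0.0094). The groups were separated only narrowly, and the call was lost when combination 3 was left out, which also took the count of called members from 7 to 4. Jun, at 177, 148 and 127 RPKM against 63.3, 69.8, 154 and 84.2 RPKM, overlapped because of vehicle 3 (log2 fold change 0.77, SE 0.29, adjusted p = 0.0433). Ier2 was lower, at 115, 78.8 and 71.7 RPKM against 101, 116, 135 and 122 RPKM, also with overlap (log2 fold change -0.44, SE 0.15, adjusted p = 0.0321). The calls of Jun and Ier2 held in 6 and 8 of 15 alternatives. Junb (log2 fold change 0.08), Nr4a1 (0.09) and Egr1 (0.26) were not called, with adjusted p of 0.689, 0.776 and 0.345, although Junb and Nr4a1 were among the most changed between naive and vehicle mice at 21 DPI.

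With anti-PD-1 alone, 3 of 10 members were higher than in vehicle and none was lower (background 10.8% higher and 12.2% lower). Egr3 was at 3.597, 4.48 and 3.36 RPKM, just above the highest vehicle sample at 3.35 (log2 fold change 0.67, SE 0.23, adjusted p = 0.0482). Egr2, at 14.8, 25.0 and 17.9 RPKM, overlapped with vehicle (log2 fold change 0.85, SE 0.26, adjusted p = 0.03). So did Atf3, at 59.8, 71.5 and 41.7 RPKM (log2 fold change 0.83, SE 0.26, adjusted p = 0.0333). Leaving out 1 sample at a time gave between 0 and 3 calls: 0 without vehicle 1 or anti-PD-1 2, and 1 without vehicle 2, vehicle 4, anti-PD-1 1 or anti-PD-1 3. With 7aaRGD alone, no member was called by limma (background 0.647%) and 0 of 10 had an unadjusted p under 0.05 (background 14.6%). The member nearest to it was Junb, at 301, 252, 250 and 336 RPKM against 412, 335, 354 and 301 RPKM in vehicle (log2 fold change -0.30, interval -0.60 to 0.00, adjusted p = 0.343).

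The combination was set against the antibody alone to see what the peptide added. No member was called by limma (4 genes of 9740, 0.0411%), while 5 of 10 had an unadjusted p under 0.05, all higher in the combination. Over all genes 15.0% passed that unadjusted threshold in either direction, 386 genes higher and 1075 lower. The 5 were Fos (log2 fold change 0.73, SE 0.20, adjusted p = 0.118), Fosb (0.99, SE 0.30, adjusted p = 0.139), Egr2 (0.87, SE 0.27, adjusted p = 0.161), Egr3 (0.64, SE 0.24, adjusted p = 0.239) and Atf3 (0.65, SE 0.27, adjusted p = 0.288). Their combination samples lay above every anti-PD-1 sample, but how many of all genes did the same was not counted. For Fos, the antibody samples were at 218, 259 and 143 RPKM, overlapping with vehicle. The interaction term, which asks whether the difference that 7aaRGD made was the same with and without the antibody, called no member (0.0% of genes). At an unadjusted p under 0.05 there were 3 members, all positive, beside 8.14% of all genes in either direction (225 positive and 568 negative). They were Fosb (1.21, interval 0.37 to 2.05), Fos (0.71, interval 0.14 to 1.29) and Junb (0.49, interval 0.03 to 0.95), at adjusted p of 0.588, 0.588 and 0.602.

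Related genes were read in the combination against vehicle as well, where 17.5% of all genes were called higher and 25.7% lower. Nr4a2 (1.35), Nr4a3 (0.57) and Nab2 (0.39) were higher among 4 relatives of the EGR and NR4A genes tested. Among 18 other early response genes, 5 were higher (Dusp5 0.93, Ier3 0.84, Nfkbiz 0.82, Gadd45b 0.71 and Zfp36 0.40) and none was lower. Of 7 other AP-1 genes, Maff was higher (0.64), and Jdp2 (-1.68) and Batf (-0.34) were lower. Of 9 upstream factors, Crem (0.65), Creb1 (0.49) and Mkl1 (0.23) were higher. In anti-PD-1 against vehicle these lists held 1 call, Jdp2 (-0.84), beside 10.8% of all genes higher and 12.2% lower. No gene of these lists was called in the other comparisons at 28 DPI or in any peptide comparison.

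Some heat shock genes were higher in the combination than in vehicle. Of the 14 dissociation genes, 7 were higher (Hspa1b 3.52, Hspa1a 3.37, Hsph1 1.43, Nfkbiz 0.82, Dnajb1 0.79, Ccl4 0.75 and Zfp36 0.40), beside 17.5% of all genes. Rgs1 was lower (-1.84), beside 25.7% of all genes, and Hspa8 was not called. With anti-PD-1 alone, 1 of the 14 was called higher and 1 lower than in vehicle, beside 10.8% and 12.2% of all genes. None of them was called between the combination and anti-PD-1. At an unadjusted p under 0.05, however, 5 of the 14 were higher and 0 lower in the combination. Over all 9740 genes, 386 were higher and 1075 lower at that threshold. Of the 14, 13 had positive values (median log2 fold change 0.38). Hspa1a was at 6.43, 24.1 and 49.6 RPKM in combination samples 1 to 3, at 7.30, 4.76 and 1.45 RPKM with anti-PD-1 and at 1.17, 0.48, 2.43 and 0.608 RPKM in vehicle samples. Within the combination Egr2 was highest in sample 1, where Hspa1a was lowest, and Fos was highest in sample 3, where Hspa1a was highest. The part of cell handling in the levels of the immediate early genes was not tested.

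**Figure D3:**
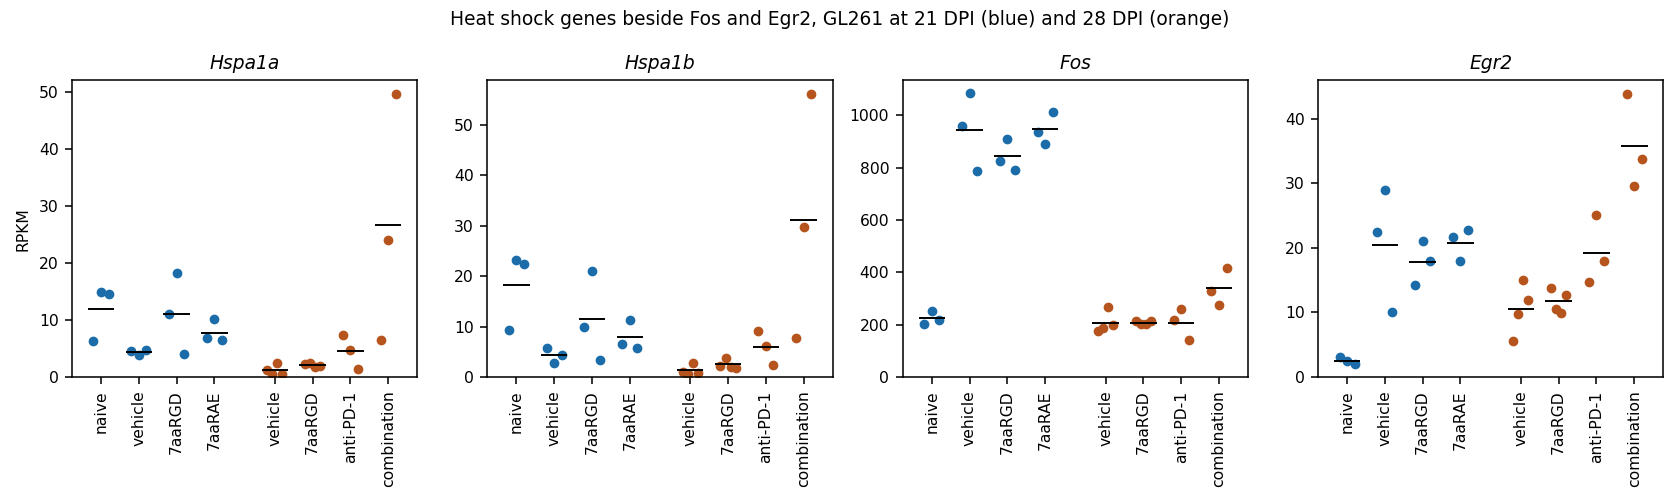
RPKM (linear axis from 0) of the heat shock genes Hspa1a and Hspa1b and of Fos and Egr2 in each GL261 sample (points) with group means (bars), at 21 DPI in blue and 28 DPI in orange. Naive mice are higher than vehicle mice in Hspa1a (mean 11.9 against 4.35 RPKM) and lower in Fos, and the combination samples spread from 6.43 to 49.6 RPKM in Hspa1a.

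Marker sums also differed at 28 DPI. Monocyte and macrophage markers summed to 27.5 to 58.2 RPKM in vehicle, 37.1 to 76.0 with 7aaRGD, 188 to 214 with anti-PD-1 and 226 to 353 in the combination. Microglia markers summed to 1460 to 2070 RPKM in vehicle and 2140 to 2320 in the combination, T and NK cell markers to 1.35 to 3.76 and 5.81 to 18.8, and neutrophil markers to 203 to 358 and 189 to 325. Of the T and NK cell markers, Cd3e, Cd3d and Ncr1 were under 0.5 RPKM in every vehicle sample, and Cd3e in every combination sample. Of 5 neutrophil markers, 1 was called higher and 1 lower in the combination than in vehicle, beside 17.5% and 25.7% of all genes. Monocyte markers were thus higher in both antibody groups, as were Egr2, Egr3 and Atf3; their part in these differences was not tested.

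The peptides were compared at 21 DPI at the same concentration. In GL261 mice, no member was called by limma for 7aaRGD against vehicle (background 0.148%), and 1 of 10 had an unadjusted p under 0.05 (background 13.6%). It was Nr4a1, at 76.6, 94.6 and 68.1 RPKM against 74.6, 58.2 and 52.6 RPKM, with overlapping groups (log2 fold change 0.37, interval 0.03 to 0.70, adjusted p = 0.334). For 7aaRAE against vehicle 0 of 10 members were called (0.0% of 9444 genes) and 0 had an unadjusted p under 0.05 (background 6.36%). Fos was at 826, 910.0 and 793 RPKM with 7aaRGD and 938, 891 and 1011 RPKM with 7aaRAE, all within the vehicle range.

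The 2 peptides, which differ in the RGD motif, were set against each other for all 10 members in each tumor model. In GL261 mice none was called (0.0% of genes) or had an unadjusted p under 0.05 (background 5.52%), and adjusted p ran from 0.992 to 0.997. The interval of 7aaRGD minus 7aaRAE was -0.18 to 0.26 for Junb, -0.43 to 0.09 for Fos and -0.18 to 0.35 for Jun, and it was widest for Egr2, -0.92 to 0.46. In U87-MG mice none was called (0.0% of 9668 genes), and 2 had an unadjusted p under 0.05 (background 3.38%), Egr2 (log2 fold change 0.52, interval 0.04 to 0.99) and Egr3 (0.48, interval 0.06 to 0.90), with adjusted p of 1.0 for all 10. A p that misses the threshold does not show that the peptides act alike, and the intervals in U87-MG mice reached from -0.59 to 0.41 for Fos and from -0.85 to 0.57 for Fosb.

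In U87-MG mice both peptide groups lay above vehicle for most members, short of the threshold. For 7aaRGD, 10 of 10 log2 fold changes were positive with a median of 0.46 (0.00 for all genes). No member was called by limma (0.0% of genes), and 4 had an unadjusted p under 0.05, all higher (background 3.78% in either direction, 138 genes higher and 227 lower). These were Egr2 (0.91, interval 0.43 to 1.39), Egr1 (0.78, interval 0.09 to 1.47), Ier2 (0.66, interval 0.07 to 1.25) and Jun (0.54, interval 0.03 to 1.04), each at adjusted p = 0.941. Egr2 was at 4.88, 3.46 and 6.19 RPKM with 7aaRGD and at 1.92, 2.06 and 2.21 RPKM in vehicle columns, which do not overlap. For 7aaRAE, 9 of 10 were positive with a median of 0.42, none was called (background 0.0103%), and Fosb (0.81, interval 0.10 to 1.52) and Ier2 (0.72, interval 0.14 to 1.31) had an unadjusted p under 0.05 (background 7.72% in either direction, 331 genes higher and 415 lower). The 2 comparisons share the vehicle columns, at 657, 532 and 433 RPKM for Fos. Of the 14 dissociation genes, 13 had positive values with 7aaRGD (median 0.26, 3 of them at an unadjusted p under 0.05) and 11 with 7aaRAE (median 0.26, 4 of them), and none was called. Monocyte and macrophage markers summed to 42.8 to 49.2 RPKM in vehicle, 36.7 to 79.9 with 7aaRGD and 16.8 to 27.5 with 7aaRAE, where 2 of the 4 were lower at an unadjusted p under 0.05 and none was called. The part of either in the members' values was not tested. Among 18 other early response genes, 18 had positive values with 7aaRGD (median 0.45) and 18 with 7aaRAE (median 0.43), and none was called. The third 7aaRGD column, at 936 RPKM for Fos, was the highest of its group for all 10 members and had the highest neutrophil marker sum, 497 RPKM against 178 and 311 in the others.

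**Figure D4:**
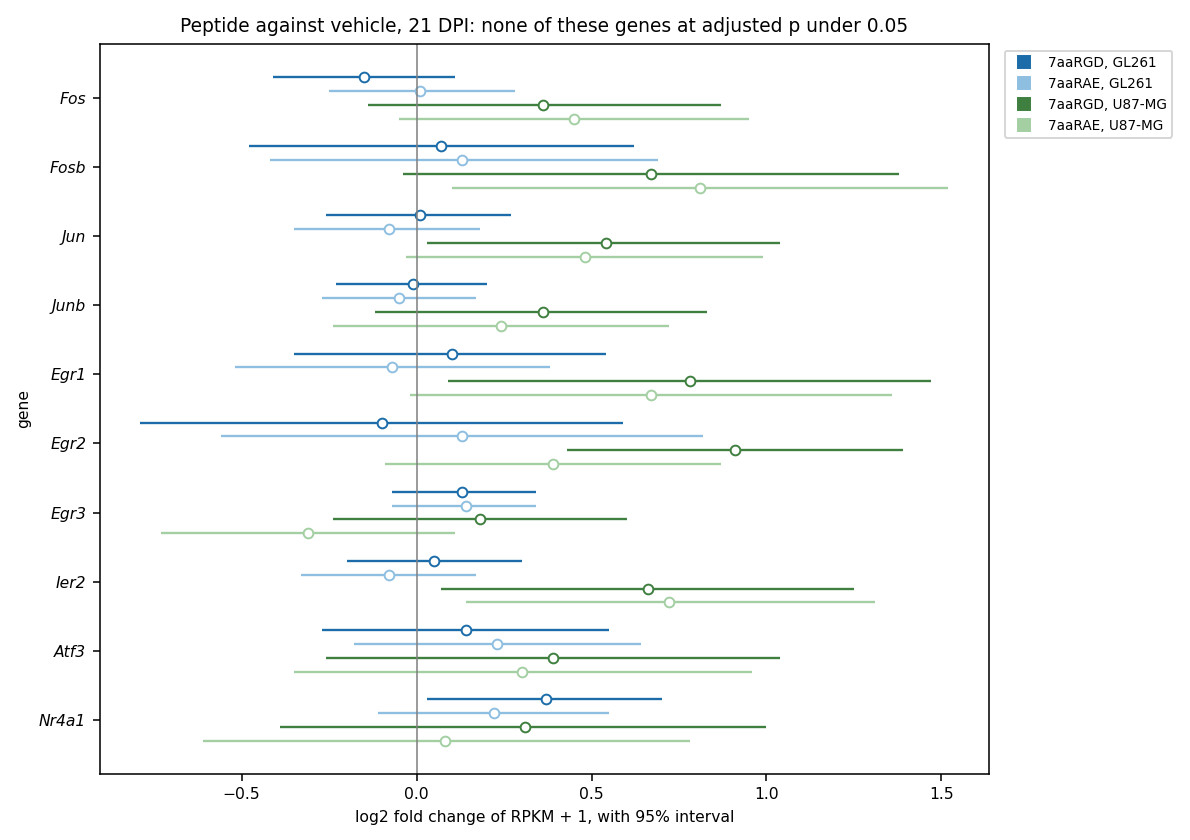
Log2 fold change of RPKM + 1 (x axis) with its 95% interval for each immediate early gene (y axis), 7aaRGD and 7aaRAE each against vehicle at 21 DPI in GL261 and U87-MG mice. No interval belongs to a called gene; in GL261 mice 7aaRGD has Nr4a1 alone clear of 0 (0.03 to 0.70), and in U87-MG mice Egr2 with 7aaRGD has the highest value (0.91).

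The samples of a group rose and fell together in these genes. After the group means were removed from log2(RPKM + 1), 44 of 45 pairs of members had a positive Pearson r over 12 samples at 21 DPI (median 0.60), 45 of 45 over 14 samples at 28 DPI (median 0.47) and 44 of 45 over 9 samples in U87-MG mice (median 0.63). The median r of the members with other genes was -0.07, 0.04 and 0.03. The highest pairs were Fos with Ier2 (0.92), Fosb with Atf3 (0.89) and Jun with Egr1 (0.98). The points of a pair share their libraries, and removing means leaves fewer independent differences than samples.

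Fos was then tested against each other member by an exact two-sided permutation of samples within groups, 27 pairs in all. All 27 values of r were positive, and 4 passed adjustment. At 21 DPI these were Ier2 (r = 0.92, exact permutation p = 0.00463, adjusted p = 0.0312; rho = 0.92, exact permutation p = 0.00309, adjusted p = 0.0278) and Atf3 (r = 0.64, exact permutation p = 0.00463, adjusted p = 0.0312; rho = 0.69, exact permutation p = 0.0108, adjusted p = 0.0486). At 28 DPI they were Fosb (r = 0.86, exact permutation p = 0.00183, adjusted p = 0.0247; rho = 0.92, exact permutation p = 0.00251, adjusted p = 0.0278) and Atf3 (r = 0.82, exact permutation p = 0.000579, adjusted p = 0.0156; rho = 0.89, exact permutation p = 0.000675, adjusted p = 0.0182). Without the 2 samples whose Fos deviation was farthest from the median, r was 0.86 and 0.63 at 21 DPI and 0.80 and 0.74 at 28 DPI. By rho, Jun (0.81, exact permutation p = 0.01, adjusted p = 0.0486) and Junb (0.87, exact permutation p = 0.00617, adjusted p = 0.0417) also passed at 21 DPI. In U87-MG mice r ran from 0.11 to 0.75 and none passed, and the smallest p that this design can give is 0.0046. Fos with Egr3 was lowest in 2 of 3 tables, with r of 0.19, 0.36 and 0.11.

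Some samples stood above or below their group in every member. All 10 members were above the group mean in 7aaRGD 2 at 21 DPI, in anti-PD-1 2 at 28 DPI and in the third 7aaRGD column of U87-MG. All 10 were below it in vehicle 3 at 21 DPI, anti-PD-1 3 and combination 2 at 28 DPI, and the second 7aaRGD and first 7aaRAE columns of U87-MG. In 7aaRGD 2 and in the third 7aaRGD column all 14 dissociation genes were above their group mean too, and 11 of 14 were in anti-PD-1 2. Of the 14, those above it were 3 in vehicle 3 at 21 DPI, 2 in anti-PD-1 3 and 7 in combination 2. In the second 7aaRGD and first 7aaRAE columns they were 4 and 6. In combination 1 the members were above it in 9 of 10 cases and the dissociation genes in 4 of 14. In combination 3 all 14 dissociation genes were above their group mean, but only 6 of 10 members were. Vehicle 3 at 28 DPI, which made Jun overlap with the combination, had 9 of 10 members and 12 of 14 dissociation genes above the group mean and the highest neutrophil marker sum of its group, 358 RPKM.

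**Figure D5:**
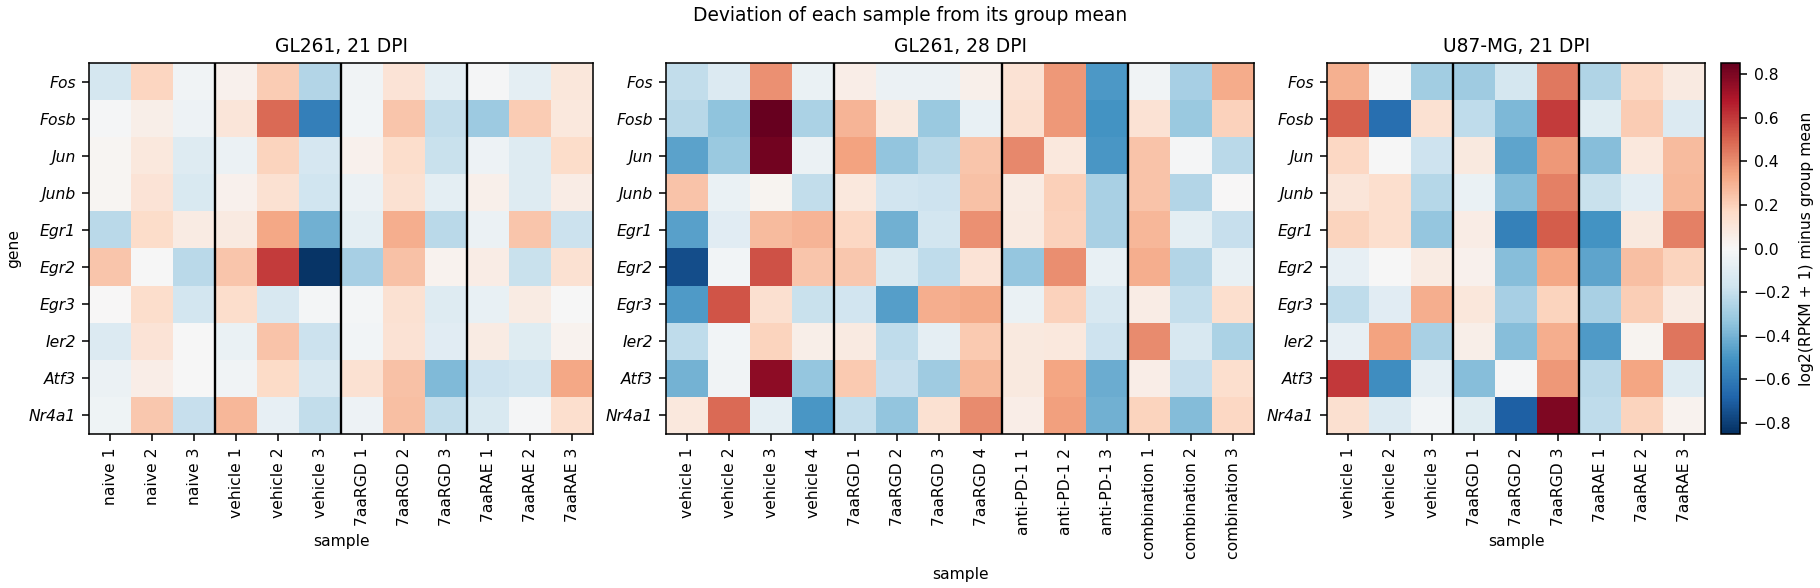
Deviation of each sample (x axis) from its group mean in log2(RPKM + 1) (colour; red above, blue below) for each immediate early gene (y axis) in the 3 experiments, with lines between groups; U87-MG samples are numbered by column. Whole columns are red or blue, as in vehicle 3 at 21 DPI, where 10 of 10 members are below the group mean.

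The genes most like the members were ranked by Pearson r of their deviations from group means with the mean deviation of the 10 members, over 35 samples and 9063 genes. They were Nfkbid (0.83), Zfp36 (0.80), Nfkbiz (0.77), Ier5 (0.74), Ltf (0.73), Ppp1r15a (0.73), Jund (0.71), Klf2 (0.69), Ddx23 (0.69) and Sulf2 (0.68). Nfkbid and Nfkbiz encode nuclear IκB proteins, Zfp36 a protein that destabilizes AU-rich mRNAs, and Ltf lactoferrin, a neutrophil granule protein. The members themselves had r of 0.44 (Egr3) to 0.80 (Fos) with the mean of the other 9. Of the 14 dissociation genes, Zfp36, Nfkbiz, Ier5 and Jund are among these 10, and Btg2 was at 0.63, Ccl4 at 0.50, Ccl3 at 0.48 and Dusp1 at 0.28. Of these, all but Ccl3 and Ccl4 are also on the lists of other early response or AP-1 genes. The heat shock genes of that list were at 0.33 (Dnajb1), 0.31 (Hsph1), 0.18 (Hspa8), 0.16 (Hspa1a) and 0.10 (Hspa1b), and Rgs1 was at -0.16.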

How the data were processed

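CD11b+ cells were profiled by strand-specific poly(A) RNA-seq. According to the study's methods and the submitters' processing notes, the authors trimmed reads (Trimmomatic), aligned them to mm10 (STAR), counted them on the reverse strand (HTSeq-count 0.11.1) and ran NOISeq. Deposited values were read as RPKM plus a constant of 2, a scaling that the sources used here do not describe: after subtracting 2, values times gene length have nearly the same sum in every sample. Values under the constant (5.99% to 6.81%) were set to 0. Counts cannot be recovered, so count tests were not run and depth is unknown.

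Symbols of 98.9% of 54513 rows matched GENCODE M21, and 21907 protein-coding genes were kept. limma 3.58.1 in R 4.3.3 (lmFit, eBayes with trend) was run on log2(RPKM + 1) keeping genes whose mean over the fitted samples reached 1 RPKM. Vehicle and naive were fitted alone, and the other groups of a table together; the scripts were tested on simulated data. The p-values measure the spread between these samples, which may be partly technical. Correlations were tested by enumerating all orders within groups (Python 3.11.15, NumPy 2.4.6). U87-MG columns carry no replicate number. Replicate differences in the GL261 tables span 7 of 8 and 9 of 10 possible dimensions (U87-MG 6 of 6), so their spread may be understated. Deviations of samples with the same replicate number had correlations from -0.77 to 0.12 at 21 DPI and from -0.5 to 0.37 at 28 DPI. Of these, 1 of 18 exceeded 0.1 at 21 DPI and 3 of 19 did at 28 DPI. With a dimension missing from the replicate differences, these values cannot decide whether the numbers pair samples.

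The members and lists were chosen with earlier results of these data known. Named beyond the members were genes past the threshold, up to 4 per list and comparison by size (further ones, and uncalled or lower-ranked ones, were picked after their values were seen), and the 10 genes most like the members. Alternatives were pseudocounts of 0.1 and 5, no filter and a mean of at least 5 RPKM, TMM factors, eBayes without trend, a replicate block, leaving out each sample and, added after seeing the data, 1 residual degree of freedom fewer.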

Additional observations from a re-analysis of the deposited data

Results flagged for a closer look

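Fosb in vehicle 3 at 28 DPI was at 16.8 RPKM, apart from the other 3 samples of its group at 6.80 to 7.42 RPKM (its gap to the nearest was 0.938 of the range, past the Dixon limit for 4 samples). It was 1 of 20 groups of 4 samples examined, and chance alone gives about 1 in 20. For 4 members every sample of a peptide group moved one way from the vehicle mean in a GL261 table and the other way in the U87-MG table; these differences between the models were not tested, and the tables were normalized separately. The ratio of 7aaRGD to vehicle means was 0.893 for Fos in GL261 mice at 21 DPI and 1.3 in U87-MG mice. For Fosb it was 0.795 in GL261 mice at 28 DPI and 1.64 in U87-MG mice. The 0.795 rests on vehicle 3, the sample flagged above. The other 3 vehicle samples, at 6.80 to 7.42 RPKM, lay within the range of the 7aaRGD samples. In GL261 mice at 21 DPI the Fosb means of 7aaRGD and vehicle were nearly equal. An opposite direction between the models is therefore not shown for Fosb. The ratio of 7aaRAE to vehicle means was 1.2 for Egr3 in GL261 mice and 0.674 in U87-MG mice, and for Ier2 0.941 and 1.69.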

How the results depend on the processing

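No member's call changed direction under any alternative. The 7 calls against naive mice held in all 14 alternatives tried. The 3 calls with anti-PD-1 fell to 0 without the filter on low values, to 0 with the replicate number as a block and to between 0 and 3 when 1 sample was left out. The 7 calls of the combination became 5 with the replicate block, which dropped Jun (0.80, adjusted p = 0.0739) and Ier2 (-0.40, adjusted p = 0.0742), 5 without the filter, which dropped the same 2 genes, 6 with 1 residual degree of freedom fewer, and 4 to 6 when 1 sample was left out. The block changed no other member's call, and whether the numbers pair samples is not known. Across all alternatives, 23 of 44 values of the members called with anti-PD-1 and 17 of 104 with the combination lost their call, and in the peptide comparisons none gained one.

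Counts over all genes moved more. Against naive mice 8062 became 5289 at a mean of at least 5 RPKM. For 7aaRGD at 21 DPI, 14 became 45 without the filter, 0 with a pseudocount of 0.1, a mean of at least 5 RPKM, TMM, the block or 1 degree of freedom fewer, and 0 to 125 when 1 sample was left out. At 28 DPI, 63 became 39 without the filter, 0 with TMM, the block or 1 degree of freedom fewer, and 0 to 1 when 1 sample was left out. For the combination against anti-PD-1, 4 became 14 (pseudocount of 5), 20 (no filter), 13 (mean of at least 5 RPKM), 1 (1 degree of freedom fewer), 0 (block) and 0 to 26 when 1 sample was left out. For anti-PD-1, 2246 became 1356 without anti-PD-1 2. Counts of 0 reached 7 for the 2 peptides in GL261 mice without the filter, 2 for 7aaRAE there, 3 for the interaction, 2 for 7aaRGD in U87-MG mice and 3 for the 2 peptides there when 1 sample was left out; the count of 1 for 7aaRAE in U87-MG mice became 2 with TMM and 0 at a mean of at least 5 RPKM. The cause was not tested. Depth is unknown.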
